A study of Mus musculus with 2 samples.

Results

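Pluripotency transcription and marker genes were read from 2 Affymetrix arrays, 1 labelled control KD and 1 labelled TET2 KD. The labels give the cells as mouse embryonic stem (ES) cells of strain C57BL/6. The 10 genes were Pou5f1, Nanog, Sox2, Sall4, Klf4, Esrrb, Tfcp2l1, Zfp42, Utf1 and Dppa4. Every probe set that the platform annotation pairs with exactly 1 gene symbol, that of a member, was taken, which gave 13 probe sets of 45037 other than Affymetrix controls and 10 genes of 17097. Both cultures grew without feeder cells on gelatin in medium with serum and ESGRO, a preparation of leukemia inhibitory factor (LIF). Virus delivered a hairpin against Tet2 or a scrambled hairpin, expressed from a U6 promoter in a puromycin-resistance vector, and both groups were kept in puromycin for 72 hours. Tet2 encodes a dioxygenase that oxidises 5-methylcytosine in DNA. With 1 array per group there is no replicate, so no difference below has an error or a test; precision is limited by there being 2 arrays. The labels name neither a clone nor the number of cultures behind an array.

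ES cells keep the pluripotency of the early embryo through a network of transcription factors that activate one another and silence genes of differentiation. POU5F1 (OCT4) and SOX2 bind DNA side by side at composite octamer and SOX elements, and with NANOG they form the core of the network. SALL4, KLF4, ESRRB and TFCP2L1 tie the core to LIF and Wnt signals, while Zfp42 (REX1), Utf1 and Dppa4 are widely used as markers of undifferentiated ES cells.

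The levels are the deposited log2 signals. The floor is 2.55, the median of both arrays over every probe set that is no Affymetrix control. A value at least as high is said to clear the floor, which marks the middle of the arrays and is no detection call. Each pair of values below gives the array labelled control KD first and the array labelled TET2 KD second, and each difference is the second minus the first on the log2 scale. Levels of different probe sets are set against the floor and not against each other, since probes differ in how well they bind.

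The labels were checked on Tet2. Its 2 probe sets read 5.48 and 5.22, and 5.62 and 5.57, so they stood at 83.7% and 96.2% of the array labelled control KD. Xist, the RNA of the inactive X chromosome, read 9.34 and 3.62 in its probe set above the floor on both arrays, and the Y-linked Eif2s3y 0.89 and 6.14 in the brighter of its 2 probe sets. The arrays therefore differ in sex-linked RNA, while neither Tet2 probe set was 2-fold apart. With 1 array per group, the hairpin and the source of the cells cannot be told apart in any difference below, that of Klf4 included. Each level carries the gene name found in the annotation, and it could not be checked here that signals and probe set names match in every row. This limit applies to each named level below. The arrays are named by their labels throughout, and no direction below is assigned to a loss of Tet2.

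The promoter windows of Pou5f1, Nanog, Sox2 and Zfp42, the genes that define ES cells here, are shown because the array values split them: 2 of these genes read under the floor and 2 well over it. Each window runs from 250 bases before to 50 bases after the RefSeq gene start (build GRCm38.p6), 5′ to 3′ on the strand of the gene. Capitals mark the octamer core TTTGCAT or its reverse complement ATGCAAA. The Pou5f1 window is chr17:35505782-35506081 (plus strand), that of Nanog chr6:122707239-122707538 (plus strand), that of Sox2 chr3:34649745-34650044 (plus strand) and that of Zfp42 chr8:43306960-43307259 (minus strand).
Pou5f1: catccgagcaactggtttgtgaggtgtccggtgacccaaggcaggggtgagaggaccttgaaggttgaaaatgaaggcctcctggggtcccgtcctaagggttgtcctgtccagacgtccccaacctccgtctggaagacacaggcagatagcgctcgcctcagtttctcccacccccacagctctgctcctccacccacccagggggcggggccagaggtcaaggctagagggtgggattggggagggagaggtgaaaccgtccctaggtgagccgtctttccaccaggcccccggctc
Nanog: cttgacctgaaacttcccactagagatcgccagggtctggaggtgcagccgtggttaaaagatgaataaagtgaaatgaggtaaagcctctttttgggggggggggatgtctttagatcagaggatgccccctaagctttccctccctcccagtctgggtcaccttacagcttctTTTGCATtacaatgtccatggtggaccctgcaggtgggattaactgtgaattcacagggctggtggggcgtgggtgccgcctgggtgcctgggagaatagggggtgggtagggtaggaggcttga
Sox2: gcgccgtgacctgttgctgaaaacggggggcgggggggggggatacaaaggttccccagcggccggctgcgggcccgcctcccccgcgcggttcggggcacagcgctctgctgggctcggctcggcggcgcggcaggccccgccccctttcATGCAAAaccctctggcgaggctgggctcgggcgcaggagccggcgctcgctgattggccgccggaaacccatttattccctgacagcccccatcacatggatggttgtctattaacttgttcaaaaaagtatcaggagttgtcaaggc
Zfp42: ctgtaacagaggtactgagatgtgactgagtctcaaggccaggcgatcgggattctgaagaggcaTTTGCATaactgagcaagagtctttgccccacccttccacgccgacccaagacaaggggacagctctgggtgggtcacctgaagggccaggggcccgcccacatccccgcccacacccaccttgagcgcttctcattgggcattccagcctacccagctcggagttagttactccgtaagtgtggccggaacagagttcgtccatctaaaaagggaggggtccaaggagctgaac

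RefSeq windows were found for 8 of the 10 members, 11 windows in all. The octamer core, searched on both strands, was present in 4 of the 11 windows, those of 3 members: Nanog (both windows, which overlap), Sox2 and Zfp42. It was present in 4.63% of all 32851 windows. In Zfp42 it was part of the full octamer ATTTGCAT (reverse complement ATGCAAAT), which 1.74% of all windows hold and which contains the core. In Nanog the core was followed, after 1 more base, by the SOX core ACAATG (reverse complement CATTGT), present in 12.6% of all windows. With the gene start as 0, the Nanog octamer core lay from -75 to -69 and the SOX core from -67 to -62. The octamer core lay from -99 to -93 in Sox2, on the opposite strand, and from -185 to -179 in Zfp42. The other Nanog window, from a gene start downstream, overlaps the first and holds the same pair of matches. The SOX core was also in the second Pou5f1 window and in 1 of 2 Esrrb windows. Nanog, with the octamer core, read under the floor on both arrays, and Zfp42, with the core as well, read far above it. The letters of a window are no record of binding, which was not measured.

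**Figure D1:**
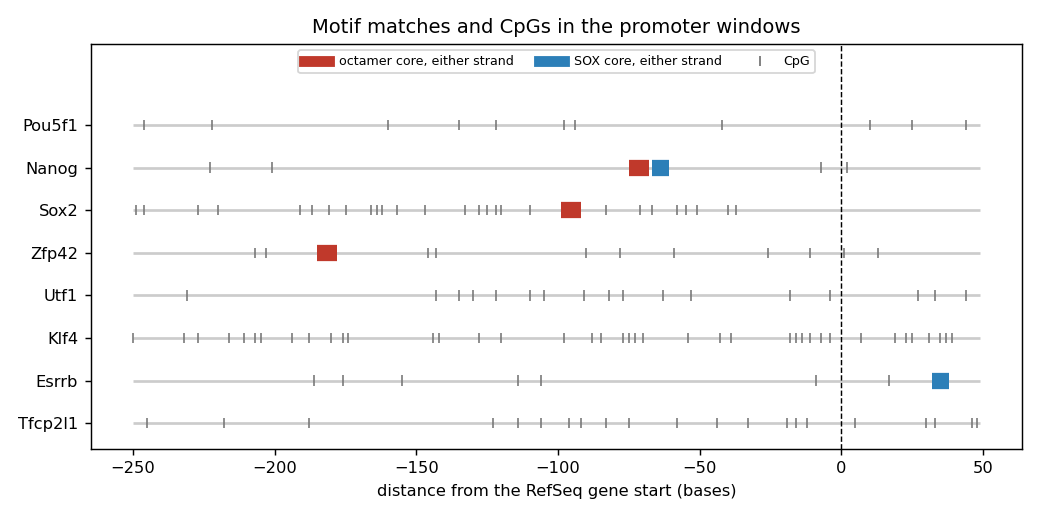
Positions of the octamer core, the SOX core and CpG dinucleotides in the first RefSeq promoter window of 8 members, as distance in bases from the gene start (dashed line). The octamer core is drawn in Nanog, Sox2 and Zfp42, directly beside the SOX core in Nanog, and the Klf4 window carries the densest row of CpGs.

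CpG dinucleotides, the sites of the cytosine methylation that TET enzymes oxidise, differed widely between these windows. The Klf4 window held 40 CpGs, Sox2 27, Tfcp2l1 21, Utf1 17, Pou5f1 and Zfp42 11 each, Esrrb 7 in each of its 2 windows and Nanog 4. The second Pou5f1 window held 6. All windows of the table had a median of 7, and 96.1% of them held fewer CpGs than the Klf4 window. Methylation itself was not measured.

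The core factors were divided by their levels, and none of the 3 differed 2-fold between the arrays. Sox2, the HMG-box partner of OCT4, read 7.09 and 6.98 (difference -0.11), more than 4 log2 units above the floor on both arrays. Pou5f1, the POU-domain factor without which ES cells lose their identity, read 1.07 and 1.29 (0.22) in its only probe set. Nanog, the homeodomain factor that sustains self-renewal, read 1.01 and 0.97 (-0.040), also in its only probe set. Pou5f1 and Nanog thus lay under the floor on both arrays, by 1.48 and 1.27 and by 1.55 and 1.59 log2 units. Of the genes that define ES cells, Sox2 and Zfp42 (below) therefore stood above the floor, and Pou5f1 and Nanog did not in the probe sets that the annotation names. In bulk RNA of this kind, fewer cells with a transcript and less of it per cell cannot be told apart.

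The markers of undifferentiated ES cells were far above the floor and nearly equal on the arrays. Zfp42, a zinc finger protein lost early in differentiation, read 10.56 and 10.58, a difference of 0.011 and 8.01 and 8.02 log2 units over the floor. Utf1, a chromatin-bound protein of undifferentiated cells, read 9.22 and 9.22 (0.0046). Dppa4, a SAP-domain DNA-binding protein, read 8.64 and 8.45 (-0.19), which puts the array labelled TET2 KD at 0.877 of the other. All 3 markers stood over 5 log2 units above the floor on both arrays, and the widest gap between arrays was that of Dppa4.

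Of the 4 other network factors, Klf4 alone had a probe set that differed 2-fold. Klf4, a Krüppel-like zinc finger factor that acts downstream of LIF and STAT3, read 5.87 and 6.88 in its first probe set (1417394_PM_at), a difference of 1.01 or 2.02-fold. Its second probe set (1417395_PM_at) read 2.99 and 3.51, a difference of 0.51 or 1.43-fold. Both cleared the floor on each array and were higher in the array labelled TET2 KD. The first passes 2-fold by a margin of 0.01 on the log2 scale, and the mean of both, 0.76, does not pass it. The annotation derives the 2 probe sets from the same cDNA sequence.

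Sall4, a zinc finger factor that binds together with OCT4, read 8.73 and 8.75 in its first probe set (1424152_PM_at; difference 0.020). The second (1424153_PM_s_at), whose suffix marks probes shared by several transcripts, read 1.35 and 1.61 (0.26). Both come from the same cDNA sequence in the annotation, yet the first stood 6.18 and 6.20 log2 units above the floor and the second under it. The level of Sall4 therefore rests on which probe set is read, while neither differed 2-fold between arrays.

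Esrrb, an orphan nuclear receptor that can stand in for Nanog in self-renewal, read 1.31 and 1.39 in one probe set (1422986_PM_at; difference 0.083). The other (1436926_PM_at) read 3.03 and 2.98 (-0.052). Only the latter was above the floor, by 0.48 and 0.43 log2 units. Tfcp2l1, a CP2-family factor induced by LIF and Wnt signals, read 1.58 and 1.96 in its only probe set, a difference of 0.38 or 1.30-fold with both values under the floor. Esrrb and Tfcp2l1 thus lay near or under the floor on both arrays.

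**Figure D2:**
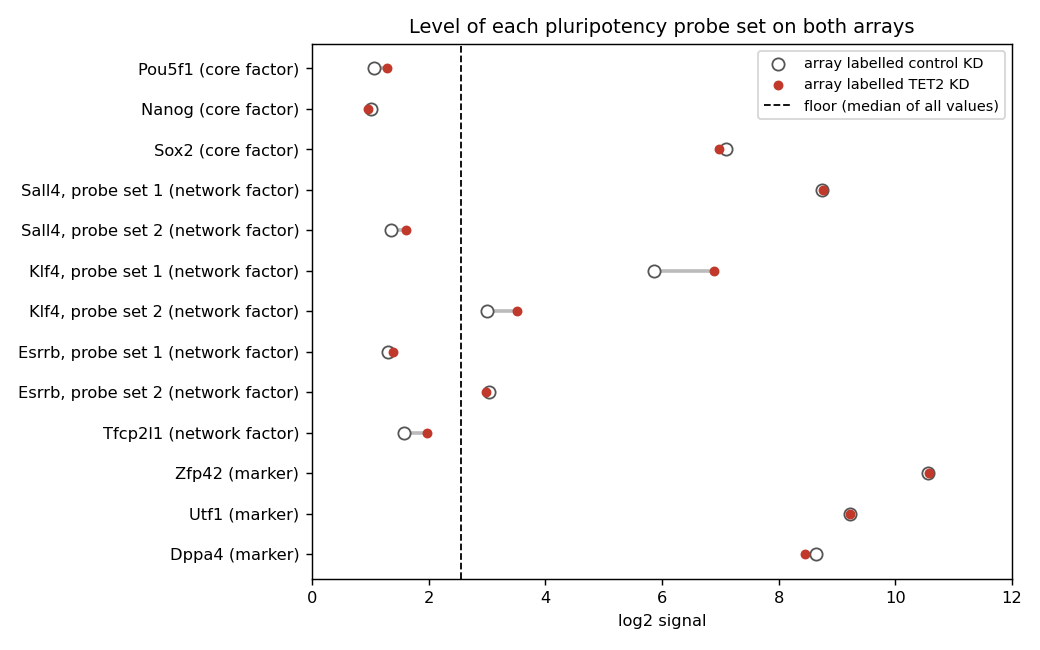
Log2 signal of each of the 13 probe sets of the 10 genes on the array labelled control KD (open circles) and the array labelled TET2 KD (filled circles), with the floor of 2.55 as a dashed line and the role of each gene in brackets. Zfp42, Utf1, Dppa4, Sox2 and the first probe set of Sall4 lie far right of the floor with overlapping or adjacent symbols, Pou5f1, Nanog and Tfcp2l1 lie left of it, and the pair of Klf4 probe sets shows the widest gaps.

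Across the 13 probe sets, 8 cleared the floor on both arrays, 5 stayed below it on both and none crossed it. Of all probe sets 48.6% cleared it on both arrays, and of those with 1 symbol 55.7% did. By gene, with the brighter probe set standing for each, 7 of 10 members did, beside 64% of all genes, so the members' share lay near the background. The 3 members under the floor on both arrays were Pou5f1, Nanog and Tfcp2l1, where 33.4% of all genes were.

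Differences between the arrays were small for all members but Klf4. Of the 13 probe sets, 9 had a difference above 0 and 4 below it, from -0.19 for Dppa4 to 1.01 for Klf4, with a median of 0.020. The median over all probe sets was 0. The median size of the difference, leaving out its sign, was 0.11 for the members and 0.097 for all probe sets. Higher by 2-fold or more was 1 of 13, the first Klf4 probe set, and lower was 0, beside 0.606% and 0.89% of all 45037 probe sets. These counts include no test, since there is 1 array per group. Without Klf4, the member with the largest difference above 0 was Tfcp2l1, at 0.38.

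The size of the difference was also taken apart by level. The 8 probe sets that cleared the floor on both arrays had a median size of the difference of 0.082, beside 0.099 over 21908 probe sets of that kind. The 5 under it had 0.22, beside 0.091 over 21907 probe sets. Of those 5, Pou5f1, Tfcp2l1, the second Sall4 and the first Esrrb probe set were higher in the array labelled TET2 KD and Nanog was lower. None reached 2-fold, and their median rests on few, low values.

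**Figure D3:**
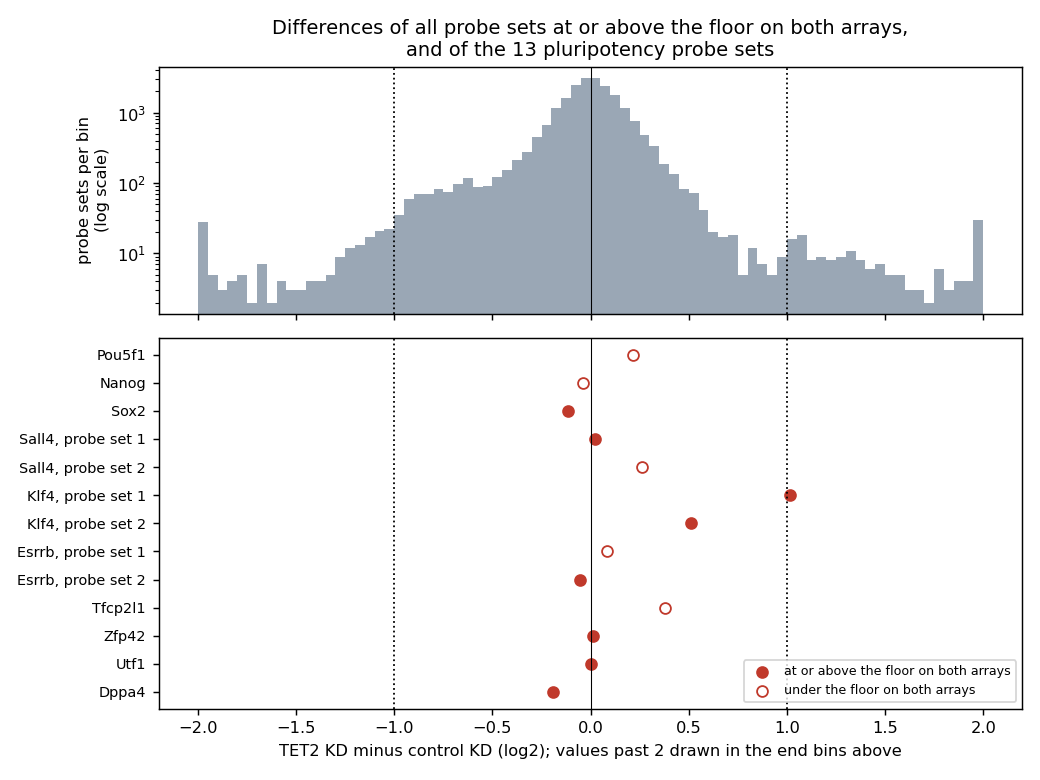
Top, number of probe sets per bin of the difference TET2 KD minus control KD (log2) for the 21908 probe sets that clear the floor on both arrays, on a log axis; bottom, the same difference for each of the 13 probe sets. Dotted lines mark 2-fold; the first Klf4 probe set lies on the line at 1.01 and the other 12 between -0.19 and 0.51.

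Where a member had several probe sets, the readings could diverge. For Sall4 and Esrrb, 1 of 2 probe sets cleared the floor on both arrays and the other was under it on both. Of all 7180 genes with several probe sets, 47.2% had at least 1 of each kind. Genes with more than 2 probe sets meet that measure more easily. The Klf4 and Sall4 probe sets each had differences of the same sign and those of Esrrb did not. Among all 4275 genes with 2 probe sets, 53.8% had the same sign. Exact ties with another probe set on both arrays occur for 4.2% of all probe sets and for none of the 13.

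Other genes of the network were taken as 3 lists by role, and 51 of 58 symbols found a probe set, and each gene was represented by its brightest probe set. On both arrays 36 cleared the floor and 13 were under it, where 64% and 33.4% of all genes were, so these counts lay near the background. Of 38 whose mean cleared the floor, 1 was higher by 2-fold or more and 1 lower, beside 1.17% and 1.41% of all 11174 such genes. Their median difference was -0.0084, beside -0.0071 for all such genes.

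Of 20 transcription and chromatin factors measured, 16 cleared the floor on both arrays, beside 64% of all genes, and none of these 16 differed 2-fold. Klf2, a relative of KLF4 with overlapping targets, read 8.34 and 8.41, while Klf5, another relative, read 1.90 and 1.90. Nr0b1 (DAX1), a nuclear receptor that binds OCT4, read 8.01 and 7.80. Prdm14, which keeps DNA methylation low in ES cells, read 6.78 and 6.90.

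Dppa2, the partner of DPPA4, read 7.57 and 7.39 in its brighter probe set, a difference of -0.18 beside the -0.19 of Dppa4. Tbx3, a T-box factor of the LIF response, read 6.78 and 6.64, and Stat3, which carries the LIF signal to the nucleus, 5.60 and 5.61. Nr5a2, an activator of Pou5f1, read 1.44 and 1.48, under the floor like its target. The Klf family was thus split as the core factors were, with Klf2 and Klf4 above the floor and Klf5 under it.

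The largest differences in that list were those of Mybl2, a proliferation factor, at 8.81 and 8.02 (-0.79), of the nuclear receptor Nr6a1, which represses Pou5f1 in differentiation, at 6.11 and 6.59 (0.48), and of Tcf7l1, a Wnt effector that restrains the network, at 3.82 and 3.58 (-0.24). All stayed short of 2-fold. The means over all probe sets were smaller, at -0.45 for Mybl2, 0.10 for Nr6a1 and -0.14 for Tcf7l1.

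Target and marker genes gave 9 of 15 that cleared the floor on both arrays, beside 64% of all genes, with none of those 9 past 2-fold. Fbxo15, a classic OCT4 and SOX2 target, read 9.61 and 9.52. Lefty1, a Nodal inhibitor, read 9.27 and 9.22, Gdf3, a TGF-beta family ligand, 7.65 and 7.83, and the hormone precursor Trh 6.65 and 6.46. These were high and close, as Zfp42 and Utf1 were.

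Fgf4, an OCT4 and SOX2 target with a composite enhancer, read 5.24 and 5.53 in its brightest probe set, and its other 3 lay under the floor. Dppa5a was at the floor, at 2.64 and 2.56. Lin28a, an RNA-binding protein that blocks let-7, read 1.08 and 1.21, and Dppa3 (STELLA), which protects DNA from demethylation in the early embryo, 2.08 and 0.87. The Dppa3 values differ by -1.22 and are both under the floor, so no fold is given. In all, 6 of the 15 were under the floor on both arrays, beside 33.4% of all genes. Pou5f1 and Nanog thus shared their place under the floor with Lin28a and Dppa3. They shared it also with L1td1, Eras, Tcl1 and Nodal, named after their values were seen.

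The LIF pathway and surface genes held both differences past 2-fold among network genes whose mean cleared the floor. Epcam, an epithelial adhesion protein of ES cells, read 5.05 and 2.14 (-2.91), which against the floor is at least 5.63-fold lower. Its other probe set read 2.00 and 2.00, under the floor. Id3, a BMP target that holds back differentiation, read 2.44 and 3.55 (1.12), at least 2.00-fold higher there. Epcam and Id3 were each under the floor on 1 array. Id1 and Bmp4, of the same list, cleared it on both, at 5.74 and 5.76 and at 5.49 and 5.56. They were named after their values were seen.

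The other genes of that list stayed short of 2-fold. Cdh1 (E-cadherin) read 9.63 and 9.87, the LIF receptor gene Lifr 3.43 and 3.31, and its co-receptor Il6st (gp130) 6.89 and 6.67. Fgfr2, a receptor for FGF ligands, read 5.23 and 4.57 (-0.66), the kinase Jak1 6.42 and 6.76 (0.34), and the FGF feedback inhibitor Spry4 6.70 and 6.54 (-0.17). Averaged over all probe sets, Fgfr2 differed by -0.25 and Spry4 by -0.0017. Among genes of the LIF signal upstream of Klf4, the means over all probe sets were -0.026 for Lifr, 0.040 for Il6st, 0.18 for Jak1 and 0.069 for Stat3, beside 0.76 for Klf4. Jak1 was higher in the array labelled TET2 KD in 3 of 3 probe sets, though short of 2-fold in each, and probe sets of 1 array are no replicates. A part of the LIF signal in the Klf4 difference was not tested.

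**Figure D4:**
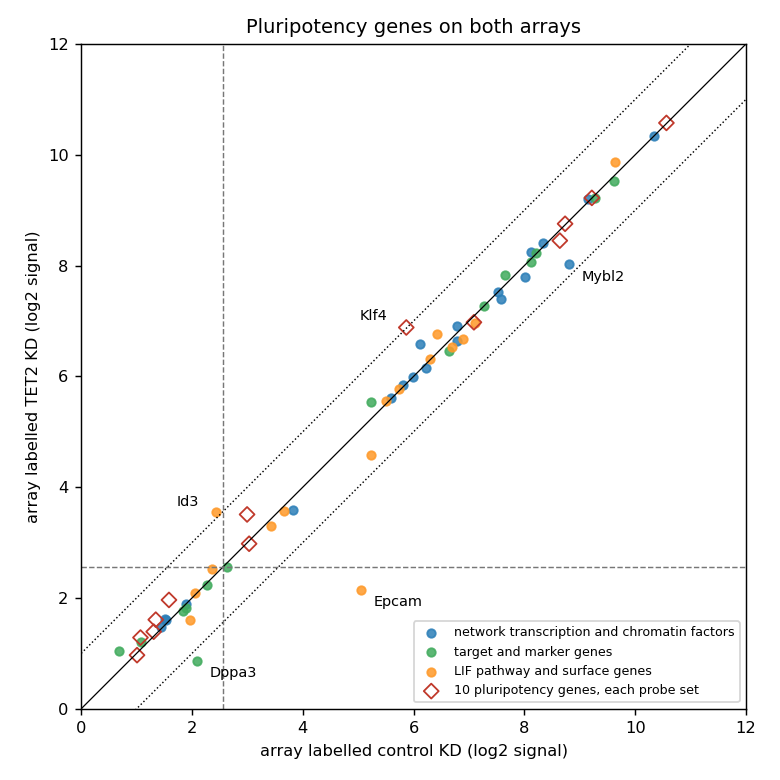
Log2 signal on the array labelled control KD (x axis) and the array labelled TET2 KD (y axis) for the genes of the 3 network lists (filled circles, 1 point a gene) and for each of the 13 probe sets of the 10 pluripotency genes (open diamonds). The solid line marks equality, dotted lines 2-fold and dashed lines the floor; Klf4 lies on the upper 2-fold line, and Epcam, Dppa3 and Id3 lie outside the lines, with at least 1 of their values under the floor.

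Genes of primed and differentiated cells were read beside the members. Of 11 primed epiblast genes 6 cleared the floor on both arrays, beside 64% of all genes, and none differed 2-fold. Otx2, a factor of the primed state, read 3.16 and 2.91, Pou3f1 (OCT6) 5.78 and 5.73, Fgf5 1.38 and 1.51, and Dnmt3b, a DNA methyltransferase, 2.22 and 2.26. Pou3f1, which recognises the same octamer as OCT4, thus read above the floor where Pou5f1 read under it.

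Lineage markers had no defining set that was wholly above the floor. Of 12 primitive endoderm genes 7 cleared the floor on both arrays, beside 64% of all genes. Gata4 read 4.21 and 4.59, Sox17 3.81 and 3.27, and Gata6 1.54 and 1.41. The brightest gene of that list, Ttr, read 10.60 and 10.73 and was named after its values were seen. Lama1, a laminin of that lineage, read 7.10 and 6.07 (-1.03) and was the only lineage gene past 2-fold whose mean cleared the floor. In mesendoderm Eomes read 4.42 and 4.61 and Mixl1 1.33 and 0.81.

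Of 8 trophoblast genes 2 cleared the floor on both arrays, Krt18 at 7.56 and 7.43 and Ascl2 at 3.44 and 3.31, and 5 were under it on both, with Cdx2 at 1.70 and 1.75. Krt8 was over it on 1 array, at 3.07 and 1.81. These 3 were named after their values were seen. Of neuroectoderm Pax6 read 4.89 and 4.57 and Sox1 0.95 and 1.04. Over the 5 primed and lineage lists, 20 of 44 genes cleared the floor on both arrays and 23 stayed below it. Of all genes 64% cleared it and 33.4% stayed below it, so a smaller share of these lists cleared it. The median difference of the listed genes whose mean cleared it was -0.013, beside -0.0071 for all such genes.

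Some markers of other tissues cleared the floor as well. The floor was cleared on both arrays by 9 of 9 oligodendrocyte, 8 of 10 neuronal, 7 of 8 astrocyte, 6 of 8 male germ cell and 6 of 10 fibroblast genes, beside 64% of all genes. Nothing particular to these lists is read from such counts, which do not show how far above the floor a gene lies. Stmn2, of neurons, read 10.34 and 10.35, Mbp, of myelin, 10.32 and 10.22, Aqp4, of astrocytes, 8.49 and 8.33, and Dazl, of germ cells, 5.61 and 5.84. Rbfox3, of neurons, read 9.32 and 9.34, Thy1, of fibroblasts and neurons, 9.06 and 9.04, and Gfap, of astrocytes, 4.23 and 4.48. Mog, of oligodendrocytes, read 3.32 and 3.18, above the floor on both arrays. Other defining markers of the same cells were under it on both: Snap25 2.51 and 2.26, Col1a1 2.36 and 2.18 and Col1a2 1.12 and 1.02. The 75th percentile of all probe sets was 4.92 and 4.88. Stmn2, Rbfox3 and Mbp thus read far above most probe sets in cells labelled ES cells, where Pou5f1 and Nanog read under the floor. These levels are at odds with the label, and the reason was not tested.

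Summed on the linear scale and returned to log2, the neuronal list stood at 11.57 and 11.60, the oligodendrocyte list at 10.90 and 10.81, the astrocyte list at 10.55 and 10.54, the germ cell list at 9.21 and 9.26 and the fibroblast list at 10.66 and 10.17. Within these 5 lists Opalin, of oligodendrocytes (4.88 and 6.01; 1.13), was past 2-fold in its brighter probe set, and its 2 probe sets together averaged 0.40. The fibroblast sum was the furthest apart of these 5, with the fibronectin gene Fn1 at 9.96 and 9.06, named after its values were seen.

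Anterior pituitary genes did separate the arrays. Of the 7 measured, 6 were lower and 1 higher past 2-fold in the array labelled TET2 KD. Of all 17097 genes, 231 were lower and 171 higher by that measure, which takes no account of the floor. The 4 whose mean cleared the floor were among the lower ones: Prl (10.66 and 4.13), Gh (10.69 and 4.60), Pomc (8.04 and 3.35) and Fshb (5.31 and 1.21; at least 6.77-fold against the floor). Cga, which encodes the common alpha subunit of several pituitary hormones, was the higher one at 1.29 and 2.80 (1.52), above the floor on 1 array only. Of the others, Lhb read 2.98 and 1.57, above the floor on 1 array only, and Tshb 2.02 and 0.62, under it on both. Of the 7 genes, 3 cleared the floor on both arrays, beside 64% of all genes. Cga, Lhb and Tshb were named after their values were seen. The summed level of the list went from 11.81 to 6.04. Its part in the differences of Klf4 and Epcam was not tested. The list was chosen with these differences known, so its count is no independent evidence.

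**Figure D5:**
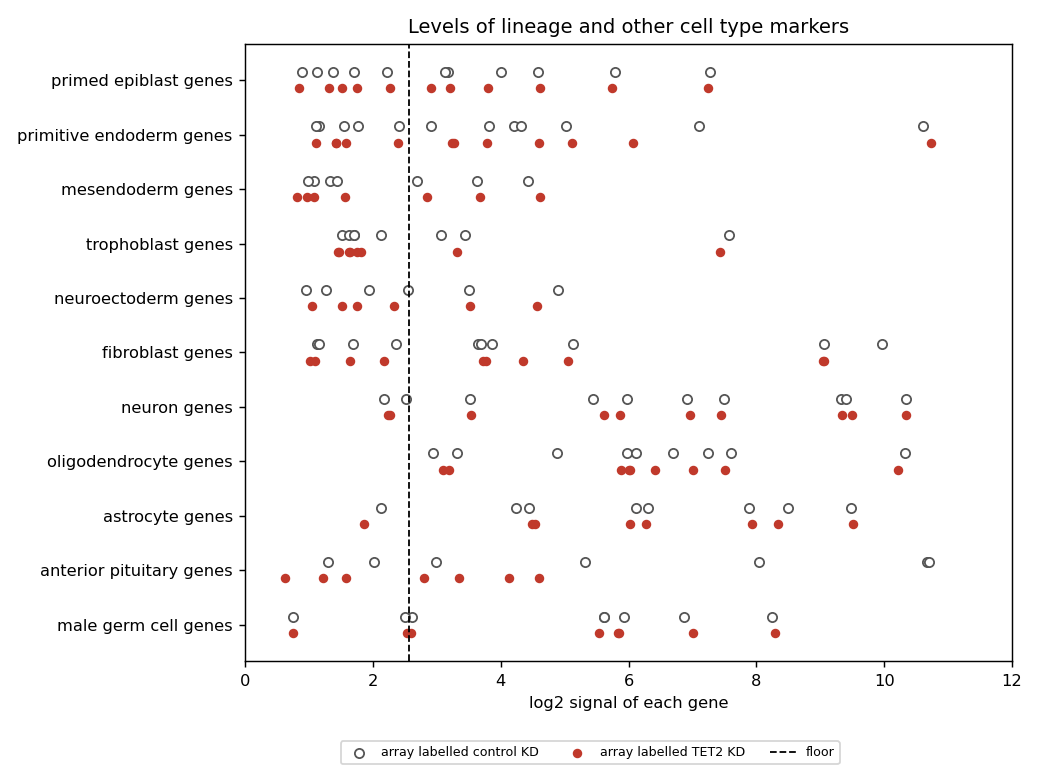
Log2 signal of each gene of the lineage lists and of the lists for other cell types on the array labelled control KD (open circles, upper row of each list) and the array labelled TET2 KD (filled circles, lower row), with the floor as a dashed line. The rows of a list resemble each other apart from the anterior pituitary, where Prl and Gh lie above 10 on the array labelled control KD and under 5 on the other.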

How the data were processed

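Total RNA of each group was copied from an oligo(dT) primer with a T7 promoter into biotin-labelled cRNA and hybridised to 1 array, per the labels' protocols. The authors deposited 1 log2 signal for each probe set; the submitters' processing notes name Affymetrix Expression Console. Its version and settings, the background correction and the normalization included, were not given in the sources used here, and the log base was read from the values. The deposited values were used without further scaling. Of 45037 probe sets other than 104 controls, 28898 have 1 gene symbol, 551 several and 15588 none, and only the first kind was named. The medians of the arrays were 2.57 and 2.55. Differences were called at 2-fold, a log2 difference of 1. With 1 array per group no test was run. Genes beyond the members were mostly named by a written rule. It took genes named in advance, up to 3 more of each network list with the largest differences, list genes past 2-fold, and defining markers. Xist and Eif2s3y, read in the label check, lay outside the rule, as did the genes marked above as named after their values were seen. Of 161 list symbols, 14 were matched to no probe set with 1 symbol and were not used here. The members, lists and rules were chosen with earlier results of these data known. Promoter windows come from RefSeq (GRCm38.p6). The calling procedure was tested on simulated data. The scripts ran under Python 3.11.15 with pandas 2.3.3, numpy 2.4.6 and matplotlib 3.10.9. Alternatives covered the scaling, the floor, the threshold and the treatment of several probe sets.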

Additional observations from a re-analysis of the deposited data

How the results depend on the processing

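No paired analysis was possible because each group has 1 array. The member counts kept their values under median centring and quantile normalization: 8 probe sets that cleared the floor on both arrays, 1 higher by 2-fold or more and 0 lower. With the 25th percentile as floor 9 cleared it, and with the 75th 6 did. The number of members higher was 0 in the mean of all probe sets and 0 at a threshold of 3-fold. Over all probe sets 416 were higher and 1364 lower at 1.5-fold and 93 and 124 at 3-fold, beside 273 and 401 at 2-fold, and 10826 lay at or above the 75th percentile on both arrays, beside 21908 at the median. Of the other pluripotency genes 0 were higher and 0 lower when the 75th percentile was the floor, 3 were lower at 1.5-fold and 0 higher at 3-fold. Of lineage genes 6 lay at or above the 75th percentile on both arrays, 2 were lower when the 25th percentile was the floor, and 0 at 3-fold. Of genes of other cell types 2 were higher when the 25th percentile was the floor, 0 at 3-fold and 0 in the mean of probe sets. In those cases the floor or the threshold sets the count by construction. The averaging does not: it lowered the count because the second probe sets differed, at 0.51 for Klf4 and -0.33 for Opalin. Across 180 recomputed values, 162 stayed on the same side of their threshold or near their value. Many could not change: member differences keep their values by construction under another threshold or without shared probe sets. The only called member difference, that of the first Klf4 probe set, kept its direction. Among these values only median centring and quantile normalization altered it, so its direction is no independent evidence. For a count, near meant at most 1.5-fold apart, and a count of 0 had to stay 0. For a median, near meant a shift of less than the robust SD of all differences, 0.144.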
